A study of Mus musculus with 12 samples.

Results

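The transcripts described here are C3, Cfb, C4a and Cd55, 4 genes of the complement system chosen by name from the 1448 genes measured in peritoneal macrophage RNA. All 4 were found in the table and stood above its lowest value in all 12 mice, so none was lost to a filter on low values. RNA was counted with the NanoString nCounter, in which a colour-coded probe is hybridized to each transcript and counted without amplification. The 4 groups of 3 mice were aged mice (20 to 22 months) given PF-044, aged mice with no agent, young mice (3 to 4 months) given PF-044, and young mice with no agent. PF-044 blocks EP2, a receptor for prostaglandin E2, and the treated mice received it by oral gavage at 2.5 mg/kg per day for 6 weeks. Strain, sex and any vehicle for the untreated mice are not stated in the labels, and neither is any sorting of the cells. Each sample is called a mouse here, but the labels do not say that samples came from separate or from pooled mice, so p-values measure the spread between these samples, which may be technical.

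Complement is a cascade of blood and tissue proteins that marks particles for uptake and recruits leukocytes. C3 is its central component: cleaved C3 binds covalently to surfaces and is recognized by phagocytes. Factor B, encoded by Cfb, joins cleaved C3 to form the convertase of the alternative pathway, which cleaves more C3, and C4 forms the classical pathway convertase together with C2. CD55, or decay-accelerating factor, is a membrane protein that takes both convertases apart and so protects the cell that carries it. Macrophages make several of these proteins locally, and C3 and Cfb are known to respond to inflammatory cytokines.

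What each row can stand for is limited by near-copies. RefSeq (GRCm38.p6) lists C4a as a transcribed pseudogene on chromosome 17 with the older name Slp, while the protein-coding C4 gene is C4b, which has no row in the expression table. The letters of the probe are not known here, so transcripts of C4a and C4b cannot be told apart. Cd55 lies on chromosome 1 beside its copy Cd55b, which has no row either. Cfb and C2, whose proteins are related, are neighbouring protein-coding genes on chromosome 17, and C3 lies elsewhere on that chromosome.

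RefSeq promoter windows (250 bases before to 50 after the start, GRCm38.p6) were at hand for C3 and Cd55. No window was at hand for Cfb or C4a. Capitals mark the C/EBP motif TTNNGNAA, searched on both strands. The C3 window is on the minus strand at chr17:57228087-57228386, and the Cd55 window is on the minus strand at chr1:130462695-130462994.
C3: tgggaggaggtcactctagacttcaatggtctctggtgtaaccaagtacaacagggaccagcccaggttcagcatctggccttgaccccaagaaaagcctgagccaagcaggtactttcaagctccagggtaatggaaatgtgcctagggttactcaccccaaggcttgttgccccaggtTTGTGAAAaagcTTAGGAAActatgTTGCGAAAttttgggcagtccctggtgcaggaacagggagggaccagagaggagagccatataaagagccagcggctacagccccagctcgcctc
Cd55: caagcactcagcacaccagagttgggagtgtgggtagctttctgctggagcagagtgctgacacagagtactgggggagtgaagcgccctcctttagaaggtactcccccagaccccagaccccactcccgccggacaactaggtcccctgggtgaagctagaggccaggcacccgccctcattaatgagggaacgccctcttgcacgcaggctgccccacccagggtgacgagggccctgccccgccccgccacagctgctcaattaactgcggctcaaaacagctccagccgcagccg

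The C3 window holds 3 C/EBP matches, none overlapping another motif, and the Cd55 window holds 0. Of 32851 RefSeq windows of the same length, 40.7% hold at least 1 match and 3.60% at least 3. Neither window holds the interferon-response core GAAANNGAA (8.56% of all windows), GAS TTCNNNGAA (8.30%), the cyclic AMP element TGACGTCA (1.79%) or the kappa B consensus (4.51%). A match is a description of the letters, not of factor binding. The windows of Cd55 and Cd55b are identical at 213 of 260 aligned bases (81.9%).

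Levels are given as deposited, normalized and on the log2 scale, and a change is a difference between group means on that scale. It passed where limma's adjusted p over all 1190 tested genes was under 0.05. Cfb, which encodes factor B, stood at 8.89, 8.98 and 8.75 in aged PF-044 mice. Its values were 9.93, 10.09 and 9.91 in aged untreated mice. In young mice Cfb stood at 7.11, 6.85 and 7.06 with PF-044, and at 8.15, 8.20 and 8.25 without it. The 4 groups form 4 steps with no overlap, in the order aged untreated, aged PF-044, young untreated and young PF-044. On the linear scale the group means (geometric) were 469 in aged PF-044, 1010 in aged untreated, 129 in young PF-044 and 294 in young untreated mice.

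C3 stood at 8.21, 8.15 and 7.89 in aged PF-044 mice, and at 8.46, 8.33 and 8.30 in aged untreated mice. Its values were 7.04, 7.12 and 7.22 in young PF-044 mice, and 7.73, 7.88 and 7.75 in young untreated mice. The order of the groups was that of Cfb, with narrower steps, and aged PF-044 replicate 3 lay 0.01 log2 units above the highest young untreated mouse. C3 and Cfb had a Pearson r of 0.965 over the 12 mice, a description of points that share 4 groups.

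C4a, a row that may read C4a, C4b or both, stood at 11.39, 11.35 and 11.11 in aged PF-044 mice. In aged untreated mice the row gave 11.24, 11.35 and 11.31. Young PF-044 mice gave 10.95, 10.93 and 10.90, and young untreated mice 11.20, 11.24 and 11.27. The young PF-044 mice were the lowest 3 of the 12, and the ranges of the other groups overlapped. Cd55, which encodes the membrane regulator, had a different order. It stood at 10.35, 10.31 and 10.37 in aged PF-044 mice and at 9.79, 9.69 and 9.59 in aged untreated mice. Its young PF-044 values were 9.60, 9.55 and 9.57, and its young untreated values 9.40, 9.33 and 9.38. Aged PF-044 mice were highest and young untreated mice lowest, while aged untreated and young PF-044 mice overlapped, with means of 9.69 and 9.57.

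**Figure D1:**
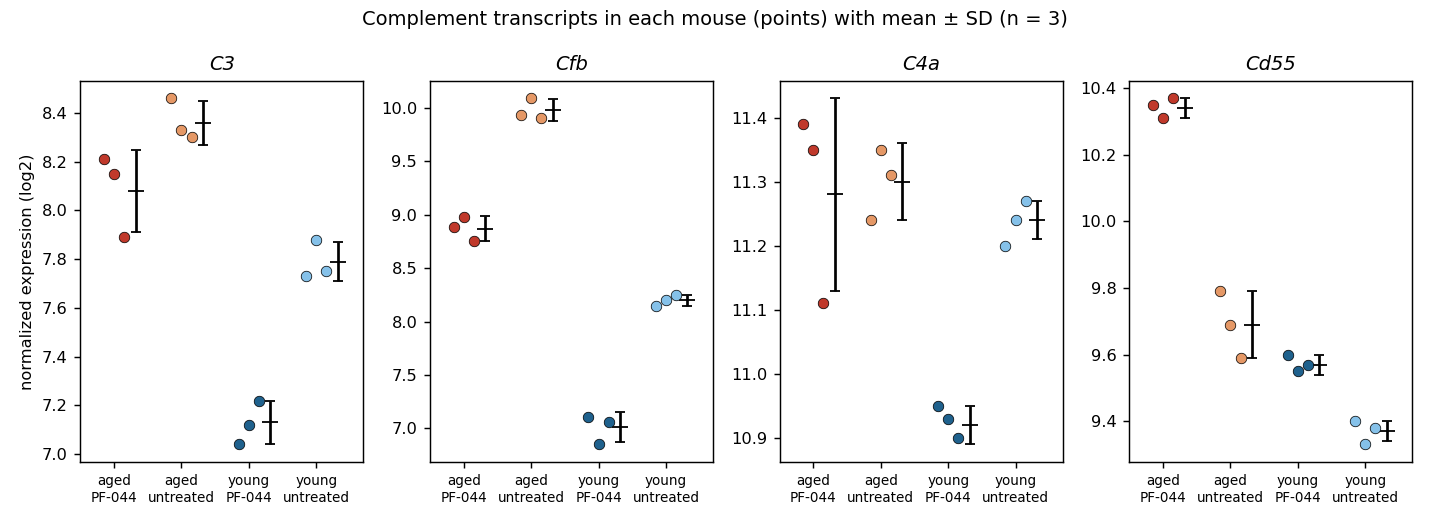
Normalized expression (log2) of C3, Cfb, C4a and Cd55 in each of the 12 mice, by group. Each point is a mouse and the bar beside it the mean ± SD of 3 mice, with the vertical axis scaled for each gene. Cfb runs between 6.85 and 10.09 with no overlap between groups, C4a is lowest in young PF-044 mice and Cd55 is highest in aged PF-044 mice.

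The precision of these values depends on how many molecules were counted. Back on the linear scale, 99.9% of 11921 values above the lowest level of 20 (the floor) were multiples, within 0.008, of a step that is constant within a mouse for each of 3 sets of genes. A value divided by its step is called a count equivalent here; it is inferred from the values. In 11 mice these ran from 98 to 358 for C3, from 139 to 629 for Cfb, from 1471 to 3297 for C4a and from 421 to 1490 for Cd55. Aged untreated replicate 2 had 69, 238, 561 and 181 for these genes, so its C3 value carries a counting error of 0.17 log2 units, the largest of the 48 values described. That mouse also had 741 of 1448 genes at the floor, against 333 to 527 in the other 11. Without it no call on the 4 genes changed, and their changes with age in untreated mice and with PF-044 in aged mice moved by at most 0.06. C3 and C4a belong to a set of 367 genes with a common constant, and Cfb and Cd55 to another of 165 genes, so the genes within each pair also share their scaling.

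The first comparison sets aged mice against young ones where neither received the drug. Cfb, C3 and Cd55 were higher in aged untreated mice and C4a did not pass the test, so 3 of the 4 genes rose and 0 fell. Of all 1190 genes tested 54.0% passed, 21.2% higher and 32.9% lower, with a median change of -0.07. Cfb averaged 9.98 ± 0.10 in aged untreated mice and 8.20 ± 0.05 in young untreated mice (SD, n = 3 each). That is a rise of 1.78 log2 units, or 3.43-fold (SE 0.09, limma adjusted p 1e-08), the 20th largest rise of the 1190 genes. C3 averaged 8.36 ± 0.09 in aged untreated and 7.79 ± 0.08 in young untreated mice, which is 0.58 higher or 1.49-fold (SE 0.10, limma adjusted p 0.00036). Cd55 rose by 0.32, or 1.25-fold (SE 0.05, limma adjusted p 0.00025), with means of 9.69 ± 0.10 in aged untreated and 9.37 ± 0.03 in young untreated mice. The C4a means were 11.30 ± 0.06 in aged untreated and 11.24 ± 0.03 in young untreated mice, a change of 0.06 (95% interval -0.08 to 0.21, limma adjusted p 0.45). C4a passed under 3 other scalings of the samples, with 0.27 to 0.47. The groups of Cfb, C3 and Cd55 did not overlap, as in 22.0% of all tested genes on the higher side and 34.4% on the lower, and with 3 mice against 3 the smallest two-sided exact permutation p is 0.1.

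In aged mice, the question is what PF-044 changed. The Cfb transcript fell and that of Cd55 rose, and the fall of C3 was small. Of the 4 genes 2 fell, 1 rose and C4a did not pass, against 40.9% of all tested genes, 15.2% lower and 25.7% higher. The groups of these 3 genes did not overlap, as in 17.7% of all tested genes on the lower side and 28.1% on the higher. Cfb averaged 8.87 ± 0.12 in aged PF-044 mice and 9.98 ± 0.10 in aged untreated mice, a change of -1.11, or 2.15-fold lower (SE 0.09, limma adjusted p 2.1e-06). Cd55 averaged 10.34 ± 0.03 in aged PF-044 and 9.69 ± 0.10 in aged untreated mice, which is 0.65 higher or 1.57-fold (SE 0.05, limma adjusted p 2.6e-06). C3 averaged 8.08 ± 0.17 in aged PF-044 and 8.36 ± 0.09 in aged untreated mice, a change of -0.28 (95% interval -0.50 to -0.06, limma adjusted p 0.041). Its call ended on leaving out any 1 of 6 mice, namely aged PF-044 replicates 2 and 3, aged untreated replicate 1, young PF-044 replicate 2 and young untreated replicates 1 and 3 (limma adjusted p 0.0503 to 0.162, changes -0.31 to -0.18). It also ended with array weights (-0.15) and with the replicate block (-0.28, limma adjusted p 0.054). C4a gave -0.01 (95% interval -0.16 to 0.13, limma adjusted p 0.89), with means of 11.28 ± 0.15 in aged PF-044 and 11.30 ± 0.06 in aged untreated mice.

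In young mice the Cfb transcript was lower with PF-044 by about as much, and those of C3 and C4a fell as well. All 4 genes passed, 3 lower and 1 higher, where 14.1% of all tested genes passed, 5.71% lower and 8.40% higher. The groups did not overlap for any of the 4, as in 14.4% of all tested genes on the lower side and 25.0% on the higher. The Cfb means were 7.01 ± 0.14 in young PF-044 and 8.20 ± 0.05 in young untreated mice, a change of -1.19, or 2.28-fold lower (SE 0.09, limma adjusted p 7.5e-06). By size this change ranked 2 among the 1190 genes, whose central range in this comparison (5th to 95th percentile) was -0.46 to 0.52. C3 averaged 7.13 ± 0.09 in young PF-044 and 7.79 ± 0.08 in young untreated mice, a change of -0.66, or 1.58-fold lower (SE 0.10, limma adjusted p 0.0014). C4a averaged 10.92 ± 0.03 in young PF-044 and 11.24 ± 0.03 in young untreated mice, a change of -0.31, or 1.24-fold lower (SE 0.07, limma adjusted p 0.0093). Quantile normalization ended the C4a call (-0.20, limma adjusted p 0.125). Cd55 averaged 9.57 ± 0.03 in young PF-044 and 9.37 ± 0.03 in young untreated mice, which is 0.20 higher or 1.15-fold (SE 0.05, limma adjusted p 0.025). That call ended on leaving out any 1 of 4 mice, young PF-044 replicates 1 and 3 and young untreated replicates 2 and 3 (limma adjusted p 0.0612 to 0.102), and on centring each sample on the median of the tested genes (0.11) or on the reference genes (0.20).

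**Figure D2:**
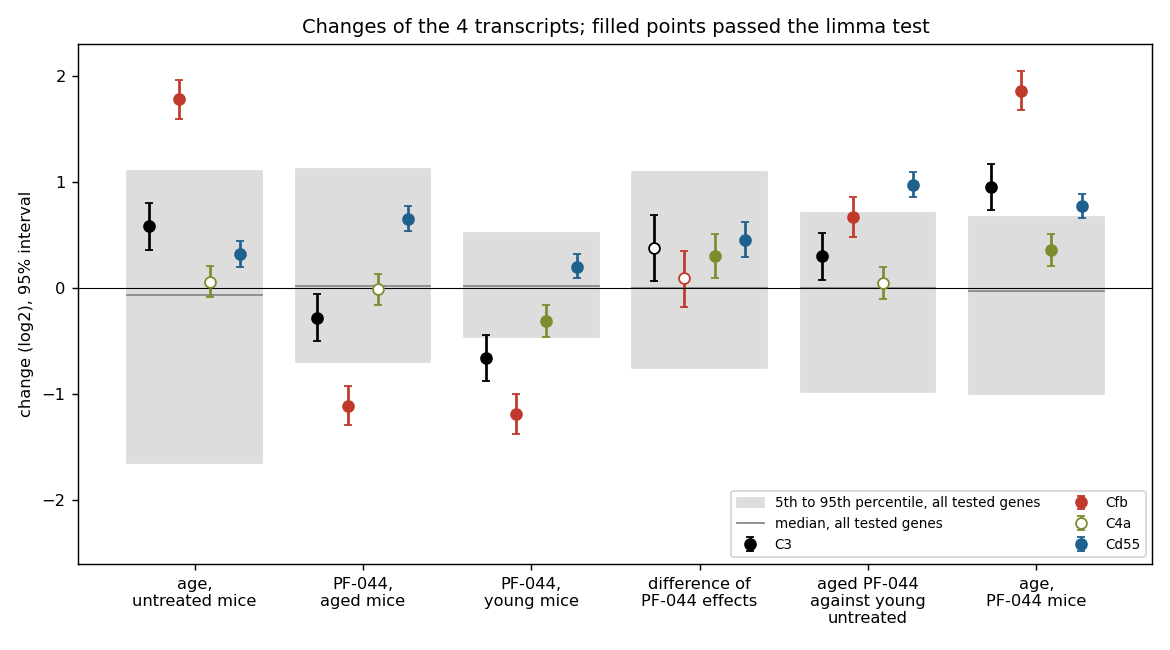
Changes (log2) of the 4 genes in the 6 comparisons, with 95% intervals. Filled points passed at an adjusted p of 0.05, grey boxes span the 5th to the 95th percentile of all 1190 tested genes and grey lines mark their median. Cfb lies outside the box in both age comparisons and both PF-044 comparisons, and Cd55 is above 0 in all 6.

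The difference between the 2 PF-044 effects tests whether the drug acted unequally at the 2 ages. It passed for Cd55 and C4a, both on the positive side. Of all tested genes 25.7% passed, 15.0% on the positive and 10.8% on the negative side. The rise of Cd55 was larger in aged mice, 0.65 against 0.20 in young mice, a difference of 0.45 (SE 0.07, limma adjusted p 0.00095). On centring on the reference genes it was 0.22 and did not pass. For C4a the change was -0.01 in aged and -0.31 in young mice, a difference of 0.30 (SE 0.10, limma adjusted p 0.038). The C4a call ended on leaving out any 1 of 10 mice (limma adjusted p 0.0544 to 0.0996), the exceptions being aged PF-044 replicate 3 and aged untreated replicate 2, and on centring on the reference genes (0.06). For Cfb the difference was 0.09, with a 95% interval of -0.18 to 0.35 (limma adjusted p 0.64), beside changes of -1.11 and -1.19. For C3 it was 0.38, with a 95% interval of 0.07 to 0.69 (limma adjusted p 0.07), and without aged PF-044 replicate 3 it passed (0.47, limma adjusted p 0.0202).

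Aged PF-044 mice were also set against young untreated mice, which also serve as the controls of both the first age comparison and the PF-044 comparison in young mice. Cfb, C3 and Cd55 were higher in the treated aged mice, 3 of 4 genes, where 34.5% of all tested genes passed, 15.0% higher and 19.5% lower. These 3 did not overlap, as in 22.3% of all tested genes on the higher side and 29.6% on the lower. Cfb was 0.67 higher, or 1.59-fold (SE 0.09, limma adjusted p 8.9e-05), and Cd55 0.97 higher, or 1.96-fold (SE 0.05, limma adjusted p 1.7e-07). C3 was 0.30 higher (SE 0.10, limma adjusted p 0.037), and not past the threshold with the replicate block (0.30, limma adjusted p 0.0501). This C3 call ended on leaving out any 1 of 4 mice, aged PF-044 replicates 1 and 2 and young untreated replicates 1 and 3 (limma adjusted p 0.109 to 0.154). C4a gave 0.05 (95% interval -0.10 to 0.20, limma adjusted p 0.69), and it passed on centring on the reference genes (0.22) and within each set of genes (0.20).

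Among mice given PF-044, all 4 genes were higher in the aged ones, against 37.5% of all tested genes, 15.0% higher and 22.5% lower. None of the 4 overlapped, as in 19.3% of all tested genes on the higher side and 32.3% on the lower. Cfb was 1.86 higher, or 3.64-fold (SE 0.09, limma adjusted p 4.3e-08), the 4th largest rise in this comparison. C3 was 0.95 higher, or 1.94-fold (SE 0.10, limma adjusted p 1.9e-05), and its rise ranked 25. Cd55 was 0.77 higher, or 1.71-fold (SE 0.05, limma adjusted p 8.1e-07), and C4a 0.36 higher, or 1.28-fold (SE 0.07, limma adjusted p 0.0012). In untreated mice the corresponding differences were 1.78 for Cfb, 0.58 for C3, 0.32 for Cd55 and 0.06 for C4a.

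Other genes of the system moved differently from C3 and Cfb with age. Of 36 further complement genes on a fixed list 19 were in the table, and 11 were tested, since 8 were at the floor in all mice. The list does not hold every complement gene measured: C1qc, another C1q chain gene, was tested but is not on it. With age in untreated mice 0 of the 11 listed genes rose and 7 fell (21.2% and 32.9% of all tested genes). Their median change was -1.04 against -0.07 over all tested genes. C5ar1, the receptor of the C5a fragment, fell by 1.61 (SE 0.11), and C3ar1, the receptor of the C3a fragment, by 1.31 (SE 0.08). Itgam, which encodes the alpha chain of complement receptor 3, fell by 1.30 (SE 0.09), and the C1q chain genes C1qb and C1qa fell by 1.10 and 0.88. C2, the neighbour and relative of Cfb, stood at 5.68, 4.32 and 4.32 in aged untreated mice, the last 2 at the floor, and averaged 6.22 ± 0.08 in young untreated mice. In aged untreated replicate 2 the lowest value above the floor was 75.9 on the linear scale, above the mean of C2 in young untreated mice, so its C2 value at the floor cannot show a fall. Without that mouse the C2 change was -1.22 (limma adjusted p 0.00642), against -1.44 with it, and both depend on the floor value of replicate 3. The classical pathway protease gene C1ra fell by 1.04. Without aged untreated replicate 2, where C1ra stands at the floor, it fell by 0.55, and without young untreated replicate 1 the call was lost (-1.02, limma adjusted p 0.0544). It was also lost on centring on the reference genes (-0.63, limma adjusted p 0.132) and with only the groups compared (-1.04, limma adjusted p 0.07).

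With PF-044 in aged mice, 6 of the 11 rose and 0 fell (25.7% and 15.2% of all tested genes). Their median was 0.45 against 0.02 over all tested genes. C3ar1 rose by 0.79, Itgam by 0.62, C1qb by 0.62, C5ar1 by 0.48 and C1qa by 0.41. C2 rose by 1.02 (limma adjusted p 0.024), a call lost without aged untreated replicate 2 (0.79, limma adjusted p 0.0636) or replicate 3 (0.79, limma adjusted p 0.089). It was also lost without aged PF-044 replicate 1 or 2 (limma adjusted p 0.0695 and 0.0874). With PF-044 in young mice C3ar1 rose by 0.36 and Itgam fell by 0.55, and the other 9 did not pass, with a median of -0.20. The share that passed was near the 14.1% of all tested genes. The difference between the PF-044 effects passed for 5 of the 11, all positive: Itgam (1.17), C1qb (0.82), C5ar1 (0.72), C1qa (0.58) and C3ar1 (0.43). On the positive side 15.0% of all tested genes passed. Between aged PF-044 and young untreated mice 5 of the 11 were lower, where 19.5% of all tested genes were. The changes were -1.13 for C5ar1, -0.68 for Itgam, -0.52 for C3ar1, -0.49 for C1qb and -0.47 for C1qa. Among mice given PF-044, 4 were lower in the aged ones, C5ar1 by -0.89, C3ar1 by -0.88, and C1qa and C1qb by -0.29 each. The share of the 11 that passed was near the 37.5% of all tested genes, of which 22.5% were lower and 15.0% higher.

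**Figure D3:**
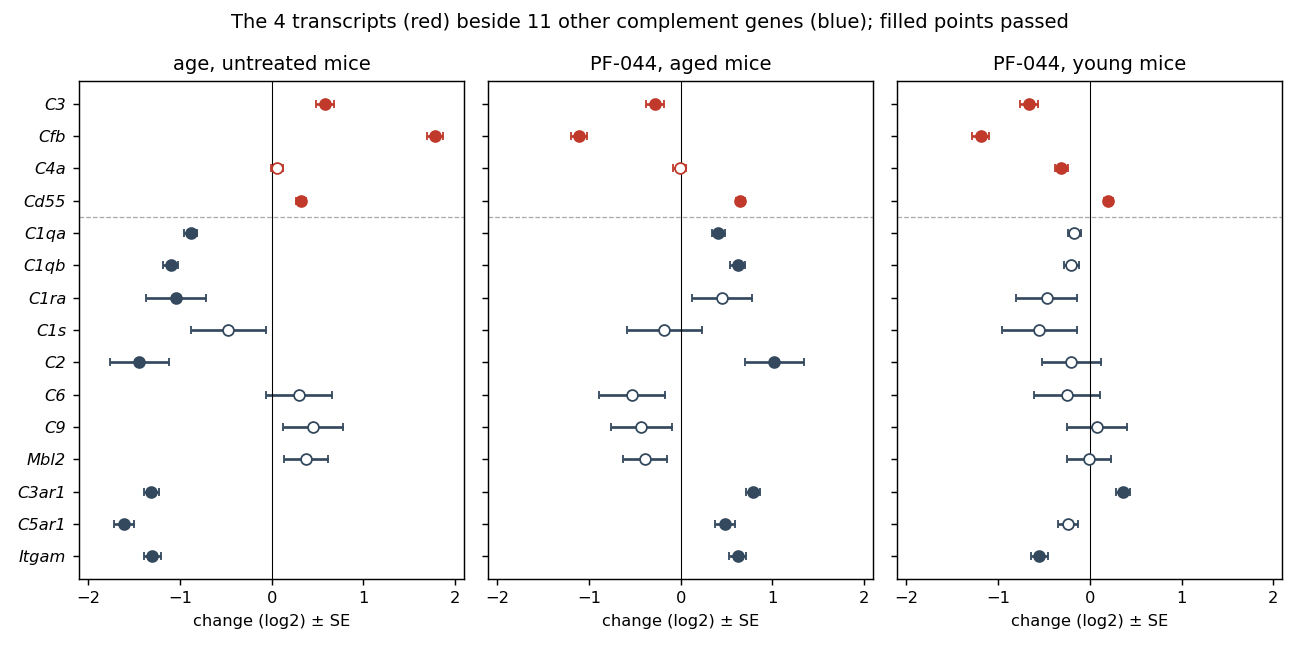
Changes (log2) ± SE of C3, Cfb, C4a and Cd55 (red, above the dashed line) and of the 11 tested genes of the fixed complement list (blue) in 3 comparisons, with filled points for an adjusted p under 0.05. In the age comparison the 3 filled red points lie above 0 and the 7 filled blue points below it. There 21.2% of all tested genes rose and 32.9% fell.

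C3 and Cfb are known targets of interferon and NF-kappa B signalling, and a fixed list of each was set beside them. Of 21 interferon-inducible genes tested 6 rose and 5 fell with age in untreated mice, with a median of 0.18, and the 11 that passed are a share near the 54.0% of all tested genes. Ifit3 (1.90), Ifit2 (1.79) and Irf7 (1.30) rose, while Psmb10 (-0.45) and Irf1 (-0.29) were among those that fell. Ifit1 rose by 2.15, but its young untreated mean of 4.45 lies close to the floor and 3 of its 12 values are at it, so this size and its change with PF-044 in aged mice depend on the floor. Socs1, at the floor in aged untreated replicate 2, fell by 1.52, or by 1.11 without that mouse. With PF-044 in aged mice 4 rose and 7 fell (25.7% and 15.2% of all tested genes), with a median of -0.35. The falls included Ifit1 (-2.09), Ifit3 (-1.93), Irf7 (-1.52) and Oas2 (-1.04), and the rises Irf1 (0.44) and Psmb10 (0.36). In young mice 1 rose and 2 fell with PF-044 (8.40% and 5.71% of all tested genes). The rise was Psmb10 (0.31) and the falls were Irf7 (-0.57) and Irf1 (-0.21), beside -1.19 for Cfb. Of 19 NF-kappa B-inducible genes 5 rose and 12 fell with age (21.2% and 32.9% of all tested genes), with a median of -0.82, among them Cxcl2 (-2.24) and Nfkbiz (-1.72) with falls and Il1b (1.40), Bcl2a1a (0.94) and Relb (0.67) with rises. With PF-044 in aged mice 9 rose and 2 fell (25.7% and 15.2% of all tested genes), with a median of 0.40. The rises included Ccl5 (1.10) and Nfkbiz (0.83), and those that fell were Il1b (-1.63) and Relb (-0.34). In young mice 5 rose, Il1b (0.82) among them, and 1 fell (8.40% and 5.71% of all tested genes), with a median of 0.20.

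Among 705 genes above the floor in all mice, the pattern of Cfb was most like that of Hif1a, a transcription factor gene of the hypoxia response (Pearson r 0.983 over 12 mice), followed by the Fc receptor gene Fcgr4 (0.977) and Gmps (0.971), an enzyme gene of guanine nucleotide synthesis. Hif1a and Gmps were also most like C3 (0.978 and 0.969), and Cfb came next (0.965). Hif1a changed far less than Cfb: by 0.36 with age in untreated mice, -0.19 with PF-044 in aged and -0.26 in young mice. Fcgr4 gave 2.50, -1.55 and -0.94 in these comparisons and Gmps 0.86, -0.61 and -0.76. C4a was most like C3 (0.893), Timd4 (0.884) and Pebp1 (0.879). Cd55 was most like the chemokine gene Ccl5 (0.942), Mpeg1 (0.898) and Ctcf (0.885), and Ccl5 gave 0.17, 1.10 and -0.13. These likenesses rest on 12 points in 4 groups and are descriptions without a test.

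Marker genes of other cells moved with some of these results. In RNA from bulk cells, fewer cells of a type and less RNA per cell cannot be told apart. The defining macrophage marker Adgre1 was above the floor in all 12 mice, and averaged 10.42 in aged PF-044, 10.38 in young PF-044 and 11.04 in young untreated mice, with aged untreated mice lowest. Adgre1 rose by 0.43 with PF-044 in aged mice (limma adjusted p 0.0053) and fell by 0.66 in young mice (limma adjusted p 0.0014). The summed linear level of 6 measured resident macrophage markers (of 8 listed) ran from 9756 to 10766 in aged PF-044, 4240 to 5089 in aged untreated, 17246 to 17970 in young PF-044 and 16420 to 16716 in young untreated mice. The sum of 4 measured B cell markers (of 8 listed) ran from 24108 to 27469 in aged PF-044, 43729 to 49225 in aged untreated, 10445 to 13265 in young PF-044 and 9730 to 10782 in young untreated mice. Cfb and C3 thus went up with the B cell sum and down with the resident macrophage sum across age and across PF-044 in aged mice, and the part of these cells in the result was not tested. With PF-044 in young mice 0 of the 6 resident macrophage markers rose and 3 fell (8.40% and 5.71% of all tested genes). Timd4 fell by 0.68, Adgre1 by 0.66 and Tgfb2 by 0.52, with a median of -0.32 over the 6. The sum does not show this, since Alox15 is its most abundant gene (13.82 in young PF-044 and 13.57 in young untreated mice on the log2 scale): in young mice both sums were slightly higher with PF-044 by their medians (11211 against 10170 and 17722 against 16495), while C3 fell by 0.66 on the log2 scale and Cfb was 2.28-fold lower. The part of these markers' falls in the results in young mice was not tested.

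The T cell and mast cell lists moved in the direction of the resident macrophage markers across age and across PF-044 in aged mice. Of 8 T cell markers, 8 fell with age in untreated mice (32.9% of all tested genes). With PF-044 8 rose in aged mice (25.7%) and 1 fell in young mice (5.71%). Of 8 mast cell markers 6 fell with age and 3 rose with PF-044 in aged mice, beside the same shares of all tested genes. Of 5 NK cell markers 3 fell with age, and with PF-044 in aged mice only Klrd1 rose (1.55), with a list median of 0. Gzma and Ncr1 were at the floor in all aged mice, and Tpsab1 and Kit in all aged untreated mice. Cd4, Cd8a, Zap70 and Hdc were at it in aged untreated replicate 2. The sizes of these changes depend on the floor. The part of these lists in the results was not tested. Sums of 8 T cell markers were 1836 to 1925 in aged PF-044, 1002 to 1074 in aged untreated, 1846 to 2031 in young PF-044 and 2059 to 2292 in young untreated mice. Sums of 8 mast cell markers were 6318 to 9103, 5614 to 6275, 11616 to 14568 and 10457 to 11868 in the same groups. Those of 5 NK cell markers were 571 to 630, 248 to 351, 448 to 531 and 488 to 550. The 6 neutrophil markers summed to at most 322 in any mouse, with Elane at the floor in all 12. Of 3 measured stromal markers (of 8 listed) Pdgfra and Pdgfrb were at the floor in all mice, and the sum was at most 64, against 60 for 3 genes at the floor.

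**Figure D4:**
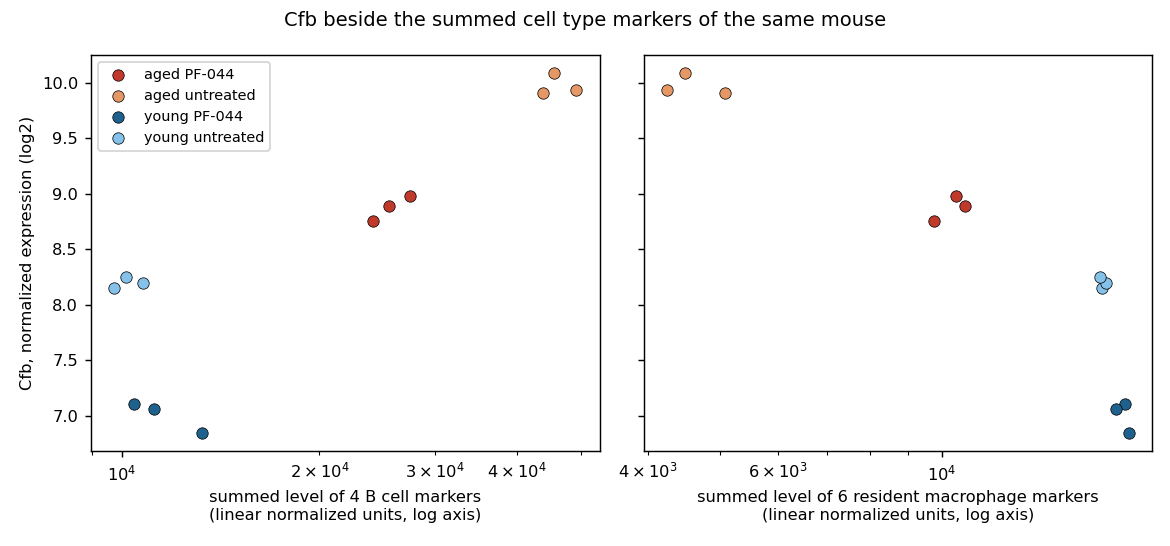
Cfb expression (log2, vertical axis) against the summed linear level of B cell markers (left) and resident macrophage markers (right, both on log axes) in each of the 12 mice, coloured by group. Among young mice the points of the PF-044 group lie below those of the untreated group by more than 1 log2 unit of Cfb, at similar marker sums. Alox15 is the most abundant gene of the resident macrophage sum, which does not show the falls of Timd4, Adgre1 and Tgfb2 in young PF-044 mice.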

How the data were processed

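Normalized NanoString nCounter values of 12 mice on the log2 scale were used as the authors deposited them. Per the labels, RNA came from a Qiagen RNeasy Mini Kit. Per the submitters' processing notes, limma was used. How background, floor and scaling were set is unstated there. Of 1448 genes, 258 at the floor (20 linear, 4.32 log2) in all mice were left out. The 1190 others entered a linear model in R 4.3.3 with limma 3.58.1 (group coefficients, moderated with a mean-variance trend), 8 residual and 3.27 prior degrees of freedom, two-sided tests and Benjamini-Hochberg adjustment over all 1190 genes of each of 6 contrasts, with a threshold of 0.05. The fit was tested on simulated data.

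The 4 genes, the gene lists and the tests were chosen with earlier results of these data known. Genes named beside the 4 were taken, per contrast, from up to 4 members of a list in each direction with the smallest p that passed. Not all of these are named. The 3 genes most like each of the 4 by Pearson r are also given. One gene that the rule names is not reported here. Replicates are 3 mice per group, and no 2 samples held identical values. Replicate numbers were not used to pair the mice in the main fit. Same-numbered deviations correlated at over 0.1 in 5 of 18 pairs, with a highest r of 0.33, which cannot show whether samples were paired. Alternatives changed scaling (1 chosen after seeing the data), floor, filter, variance model, weights and samples.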

Additional observations from a re-analysis of the deposited data

Results flagged for a closer look

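The effect of PF-044 differed between aged and young mice for 2 of the 4 genes by the test of that difference. Of all 1190 tested genes 25.7% passed it, 15.0% on the positive and 10.8% on the negative side. Cd55 rose by 0.65 log2 units in aged and by 0.20 in young mice, a difference of 0.45 (SE 0.07, limma adjusted p 0.00095), and its 3 aged PF-044 values (10.31 to 10.37) lay above those of all other mice. Centring on the reference genes, all of which lie in another set of genes than Cd55, ended this call (0.22). C4a gave -0.01 in aged and -0.31 in young mice, a difference of 0.30 (SE 0.10, limma adjusted p 0.038) that was lost on leaving out any 1 of 10 mice. Groups of 3 mice are too small for a test of single outlying mice.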

How the results depend on the processing

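Of the 24 changes (4 genes in 6 comparisons), 13 kept their direction and their side of the threshold under all 23 alternatives run: C3 with PF-044 in young mice and in both age comparisons, Cfb in all comparisons but the difference between PF-044 effects, C4a with age in PF-044 mice, and Cd55 in the age comparisons, with PF-044 in aged mice and between aged PF-044 and young untreated mice. Cfb ranged from 1.71 to 2.18 for age in untreated mice, -1.34 to -1.04 for PF-044 in aged and -1.29 to -1.11 in young mice. Where a value below crosses the threshold or 0, the cause was not tested.

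C3 with PF-044 in aged mice was lost with only the groups compared (-0.28, limma adjusted p 0.0904), with array weights (-0.15) and with the replicate block (-0.28, limma adjusted p 0.054), and it ran from -0.34 to -0.18 with single mice left out. C3 between aged PF-044 and young untreated mice was lost with the replicate block (0.30, limma adjusted p 0.0501) and ran from 0.24 to 0.39 with single mice left out. The block changed no other call on the 4 genes. The C3 difference between PF-044 effects passed with a common floor of 100 (0.38), with the 706 genes never at the floor (0.38) and with array weights (0.49), and ran from 0.31 to 0.47 with single mice left out.

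C4a with age in untreated mice passed on centring on the median of the tested genes (0.27), on the reference genes (0.47) and within each set of genes (0.27, chosen after seeing the data). With PF-044 in aged mice it passed on centring on the reference genes (-0.25), and turned positive with quantile normalization (0.13), with array weights (0.04), without aged PF-044 replicate 3 (0.07) and without aged untreated replicate 2 (0.01), from -0.07 to 0.07 with single mice left out. In young mice it was lost with quantile normalization (-0.20). Its difference between PF-044 effects was lost when centred on the tested genes' median (0.27), on the reference genes (0.06) and within each set (0.22), with no filter (0.30) and without trend (0.30), and ran from 0.24 to 0.38 with single mice left out. Between aged PF-044 and young untreated mice it passed on centring on the reference genes (0.22) and within each set (0.20). The Cfb difference between PF-044 effects turned to -0.15 on centring on the reference genes. Cd55 with PF-044 in young mice was lost when centred on the tested genes' median (0.11) and on the reference genes (0.20) and without trend (0.20), and ran from 0.18 to 0.22 with single mice left out. Its difference between PF-044 effects was lost on centring on the reference genes (0.22).

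The 4 reference genes lie in a set of 658 genes that holds none of C3, Cfb, C4a and Cd55, and centring on them moved the median change of all genes to 0.34 for age in untreated mice and to -0.21 for PF-044 in aged mice. It also changed the split of higher and lower calls to 552 and 222 for age (252 and 391 as deposited) and to 158 and 295 for PF-044 in aged mice (306 and 181 as deposited). Centred on the tested genes these splits were 439 and 315 and 244 and 253, and with quantile normalization 339 and 347 and 289 and 236.

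Of the 11 other complement genes tested from the fixed list, 6 passed with PF-044 in aged mice and 3 on centring on the reference genes. In young mice 2 passed, and 4 on centring on the median of the tested genes, 6 with only the groups compared or with array weights, and 1 to 4 with single mice left out. For the difference between PF-044 effects 5 passed, and 2 on centring on the reference genes. For age in PF-044 mice 4 passed, and 2 on centring on the median of the tested genes, on the reference genes or within each set. Irf1 with age in untreated mice turned to 0.12 on centring on the reference genes. The exact permutation test cannot pass with 3 mice against 3, so it gave no call.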
